A study of Mus musculus with 24 samples.

Results

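The 9 genes described here make, break down or convert ceramide and were chosen by name: Sptlc1, Sptlc2, Cers2, Cers5, Cers6, Degs1, Asah1, Smpd1 and Ugcg. They are 9 of 54532 genes in the deposited table, and all 9 were above the filter on low values, so none dropped out of the tests. The rule is this list of names, and the set was proposed with earlier results of these data known. The cells were bone marrow-derived macrophages of C57BL/6 mice, cultured for 7 days with L929-conditioned medium, a source of macrophage growth factor, before any exposure. There were 6 groups of 4 libraries. Trem2-/- cells (KO), from mice with both copies of the lipid receptor gene Trem2 knocked out, were exposed to ACM, exposed to sphingosine-1-phosphate (S1P) at 500 nM, or left untreated. Wild-type cells (WT) had the same 3 conditions. Both exposures lasted 24 hours. ACM was serum-free medium collected from AML12 hepatocytes, an established mouse line, that had turned apoptotic under 800 µM palmitate. For untreated cells no medium, vehicle or culture time is stated, and neither the age of the mice nor the kind of Trem2 allele is given in the sources used here. The labels name no animal, culture or batch, so the p-values measure only how far these libraries differ among themselves, and that spread may be technical.

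Ceramide is the centre of sphingolipid metabolism. New ceramide is built in the endoplasmic reticulum: serine palmitoyltransferase joins serine to palmitoyl-CoA, ceramide synthases add a second fatty acid whose length depends on the synthase, and a desaturase finishes the backbone. In the lysosome, acid sphingomyelinase and acid ceramidase release ceramide and then sphingosine, the precursor of S1P, from membranes that a macrophage has taken up. Ceramide can also leave towards sphingomyelin or, through glucosylceramide synthase, towards glycosphingolipids.

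Sptlc1 (chr13:53332748-53377397, minus strand) and Sptlc2 (chr12:87305058-87388355, minus strand) encode the catalytic pair of serine palmitoyltransferase. Cers2 (chr3:95314791-95323599, plus strand) encodes the ceramide synthase for very long acyl chains, while Cers5 (chr15:99734881-99772885, minus strand) and Cers6 (chr2:68861441-69114282, plus strand) encode synthases that prefer palmitoyl chains. Degs1 (chr1:182275772-182282804, minus strand) encodes dihydroceramide desaturase. Asah1 (chr8:41340197-41374773, minus strand) encodes acid ceramidase and Smpd1 (chr7:105554360-105558389, plus strand) acid sphingomyelinase. Ugcg (chr4:59189257-59222833, plus strand) encodes glucosylceramide synthase. Coordinates are those of GENCODE M21 on GRCm38.

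The promoters of Cers2, Cers6, Cers5 and Ugcg are shown because the contrast of Cers2 and Cers6 with Cers5 and Ugcg runs through the results that follow. Each line holds the 250 bases before a RefSeq transcription start on GRCm38.p6, 5′ to 3′ on the gene's own strand. Capitals mark the GC box GGGCGG, the CCAAT box, the E-box CACGTG and the antioxidant response element core TGACNNNGC, each searched on both strands.
Cers2, chr3:95314940-95315189, plus strand: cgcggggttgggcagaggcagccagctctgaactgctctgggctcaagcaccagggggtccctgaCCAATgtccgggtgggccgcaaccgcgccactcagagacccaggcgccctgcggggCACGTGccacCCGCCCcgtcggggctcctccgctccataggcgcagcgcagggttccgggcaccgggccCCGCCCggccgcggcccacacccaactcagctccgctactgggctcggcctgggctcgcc
Cers6, chr2:68861191-68861440, plus strand: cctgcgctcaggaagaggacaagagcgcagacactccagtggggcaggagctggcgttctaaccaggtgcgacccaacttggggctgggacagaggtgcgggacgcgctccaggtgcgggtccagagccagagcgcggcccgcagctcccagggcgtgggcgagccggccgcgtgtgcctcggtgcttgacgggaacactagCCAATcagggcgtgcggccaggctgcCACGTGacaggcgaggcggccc
Cers5, chr15:99772516-99772765, minus strand: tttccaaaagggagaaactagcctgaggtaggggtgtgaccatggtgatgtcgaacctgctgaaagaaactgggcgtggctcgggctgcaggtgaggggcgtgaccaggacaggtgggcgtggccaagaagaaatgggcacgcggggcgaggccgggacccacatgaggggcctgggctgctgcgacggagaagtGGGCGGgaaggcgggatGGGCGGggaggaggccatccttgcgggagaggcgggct
Ugcg, chr4:59189300-59189549, plus strand: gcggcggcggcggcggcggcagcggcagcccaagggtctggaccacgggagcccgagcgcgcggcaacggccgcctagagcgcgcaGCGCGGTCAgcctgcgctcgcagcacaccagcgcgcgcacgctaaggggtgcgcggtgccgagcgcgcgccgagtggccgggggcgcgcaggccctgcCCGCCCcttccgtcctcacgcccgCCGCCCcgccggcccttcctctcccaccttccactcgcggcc

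The RefSeq table held 9 such windows for 8 of the 9 members, with 2 starts for Cers2. An E-box was found in 3 of the 9 windows, those of the first Cers2 start (bases -129 to -124 from the start), Cers6 (-22 to -17) and Degs1 (-43 to -38), and in 6.02% of all 32851 windows. The window of the second Cers2 start holds no E-box, and neither do those of Cers5 and Ugcg. The GC box was in 6 of 9 member windows and 32.7% of all, the CCAAT box in 5 of 9 and 33.8% of all, and the antioxidant core in 1 of 9 (Ugcg, -164 to -156) and 10.2% of all. The cAMP response element TGACGTCA was in 0 of 9 and 1.55% of all, and no 2 of these motifs share a base in the windows printed. The 4 windows printed have a GC content of 65.6 to 80.4%, against a median of 52.4% over all windows. A match to letters is a description and no evidence that a factor binds there.

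The values are FPKM, fragment counts divided by exon length and by a library size, so levels can be set side by side between genes. The library size recovered from the values was 16.6 to 25.2 M reads. In every library the reads summed over genes were above it, by unequal amounts. They were 21.7 against 20.2 M in WT ACM 19 and 18.8 against 18.2 M in WT untreated 1. The recovered size is therefore not the plain read total, and the reason was not tested. Each member rested on at least 658 reads in every library (Smpd1), so counting error was at most 3.90% of a value. Trem2, the targeted gene, had a mean FPKM of 39.2 to 39.6 in the treated KO groups, so its transcript was still counted there, against 77.8 to 103 in the WT groups. The library labelled KO untreated 81 had 79.6 FPKM of Trem2, a value that falls among the 4 WT untreated libraries (74.5 to 82.7), and the other 3 KO untreated libraries had 35.7 to 40.2. It stays in the KO untreated group as labelled, and results that move with it are also given without it. All 8 macrophage markers were expressed, with sums of 4798 to 5167 FPKM in KO ACM, 4913 to 5105 in KO S1P, 4620 to 6716 in KO untreated, 6544 to 7275 in WT ACM, 4646 to 6438 in WT S1P and 7897 to 8094 in WT untreated libraries. The fibroblast markers summed to at most 0.080 FPKM. Markers of hepatocytes, the source of ACM, of which 2 of 8 were above the filter, summed to 3.49 to 4.52 FPKM in WT S1P libraries and 1.71 to 3.04 in all others, and Serpina1a was at 0 in every library. Markers of granulocytes and progenitors summed to 22.6 to 23.2 FPKM in KO ACM, 20.2 to 23.2 in KO S1P, 6.90 to 20.7 in KO untreated, 5.43 to 7.61 in WT ACM, 7.27 to 10.7 in WT S1P and 6.60 to 9.33 in WT untreated libraries.

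Asah1, Degs1 and Cers2 were the most abundant of the 9, Cers6 and Ugcg the least. Asah1 ranged over the 24 libraries between 99.1 and 118 FPKM (median 111), Degs1 between 94.6 and 105 (median 100.6) and Cers2 between 77.6 and 107 (median 84.2). Each of these 3 was above at least 95.7% of the 11377 genes tested. Cers5 ranged between 18.1 and 23.8 FPKM (median 21.8), Sptlc2 between 18.6 and 21.99 (median 19.9), Sptlc1 between 15.3 and 18.3 (median 16.6) and Smpd1 between 11.1 and 14.1 (median 12.9). Cers6 ranged between 8.84 and 11.8 FPKM (median 9.72) and Ugcg between 8.35 and 11.2 (median 10.02). The changes were small: the highest group mean was 1.28 times the lowest for Cers2, 1.25 times for Cers6, and 1.05 to 1.17 times for the other 7. In these bulk samples, fewer cells of a type and less RNA per cell cannot be told apart.

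**Figure D1:**
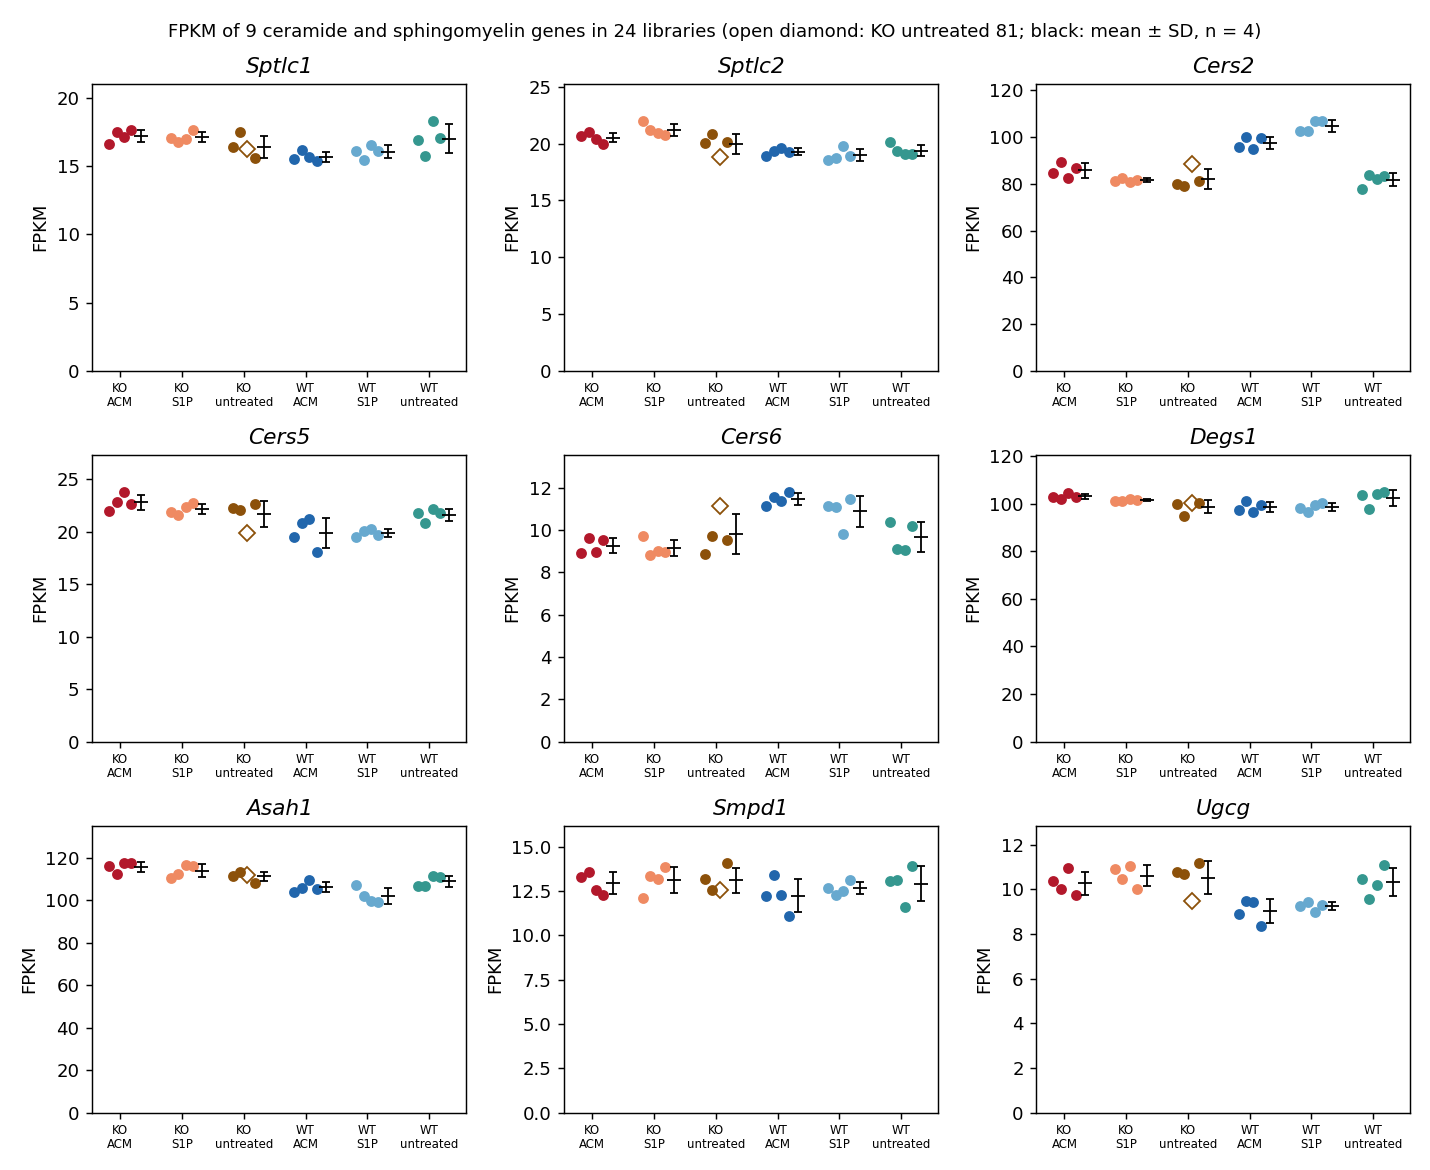
FPKM (y axis) of each of the 9 genes in every library, by group; points are libraries, bars the mean and SD of 4 libraries, and the library labelled KO untreated 81 is drawn apart. Cers2 is highest in WT S1P and WT ACM libraries. For Sptlc2, Cers2, Cers5, Cers6, Ugcg and, narrowly, Smpd1 the marked library lies outside the range of the other 3 KO untreated ones.

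The first question was how the 2 exposures moved these genes in WT cells and in KO cells. In WT cells both ACM and S1P raised the ceramide synthase genes Cers2 and Cers6 and lowered the glucosylceramide synthase gene Ugcg. There 22.1% of all genes passed the test with ACM and 52.4% with S1P. In KO cells none of the 9 passed under either exposure, where 0.00879% of all genes passed in each, so the members were like nearly all genes. Cers2 showed the largest difference, a mean 19.5% higher with ACM and 28.2% higher with S1P in WT cells. Differences are on the log2(FPKM + 1) scale with their SE, tested with limma over all 11377 genes and called at an adjusted p under 0.05. The adjustment is made within each comparison, so calls in WT and KO cells do not rest on the same unadjusted p. The interactions given further below compare the genotypes directly. Each exposure is set against the same untreated libraries of its genotype, so the ACM and S1P results of a genotype share those 4 libraries. In WT cells the summed macrophage markers were lower in every ACM and every S1P library than in every untreated one, and the summed hepatocyte markers were higher in every S1P library than in every untreated one. Their part in the WT differences was not tested.

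Cers2 had an FPKM of 84.6, 89.6, 82.4 and 86.8 in the KO ACM libraries and 81.4, 82.6, 80.7 and 81.7 in the KO S1P libraries, against 79.997, 79.1, 88.6 and 81.4 in the KO untreated libraries. The WT ACM libraries had 95.9, 99.999, 95.1 and 99.5 and the WT S1P libraries 103, 103, 107 and 107, against 77.6, 83.9, 82.1 and 83.3 in the WT untreated libraries. Both treated WT groups lay above every WT untreated library, and all KO libraries lay below all treated WT libraries. Against untreated WT cells Cers2 rose by 0.25 ± 0.035 (adjusted p = 2.72e-05) with ACM and by 0.36 ± 0.035 (adjusted p = 2.34e-08) with S1P. Both calls held in each of the 14 alternatives tried. After scaling each library to a common sum the ACM difference was 0.14. In KO cells the Cers2 difference was 0.061 ± 0.035 with ACM (adjusted p = 0.634, 95% interval -0.011 to 0.13) and -0.0096 ± 0.035 with S1P (adjusted p = 0.955, -0.082 to 0.063). With the library labelled KO untreated 81 left out, which had the highest Cers2 of its group, the KO differences were 0.097 (adjusted p = 0.380) and 0.026 (adjusted p = 0.886), and the 4 KO ACM libraries then lay above the 3 KO untreated ones. Cers2 overlaps 2 genes on the opposite strand, the protein-coding gene Setdb1 and the antisense gene 6330562C20Rik, and the counting strand is not given. Setdb1, at a mean of 12.3 FPKM, differed by -0.075 ± 0.039 (adjusted p = 0.182) with ACM and by -0.15 ± 0.039 (adjusted p = 0.00320) with S1P in WT cells, the opposite direction to Cers2. 6330562C20Rik had a mean of 1.59 FPKM.

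Cers6, one of the synthases for palmitoyl chains, had an FPKM of 8.92, 9.64, 8.98 and 9.52 in the KO ACM libraries and 9.71, 8.84, 9.02 and 8.98 in the KO S1P libraries, against 8.85, 9.73, 11.1 and 9.52 in the KO untreated libraries. The WT ACM libraries had 11.1, 11.6, 11.4 and 11.8 and the WT S1P libraries 11.1, 11.1, 9.81 and 11.5, against 10.4, 9.11, 9.06 and 10.2 in the WT untreated libraries. All WT ACM libraries lay above all WT untreated ones, whereas the WT S1P library at 9.81 fell inside the WT untreated range. Cers6 rose by 0.22 ± 0.056 (adjusted p = 0.00658) with ACM in WT cells and by 0.15 ± 0.056 (adjusted p = 0.0260) with S1P, means 18.4% and 12.4% higher. After scaling to a common sum the 2 differences were both 0.12 (adjusted p = 0.165 and 0.136), so neither call held there. The S1P call was also lost without low-value filtering, in a fit of only the 2 groups, and when WT S1P 25, 26 or 28 or WT untreated 2 or 3 was left out (0.13 to 0.14). In KO cells Cers6 differed by -0.071 ± 0.056 with ACM (adjusted p = 0.760) and -0.089 ± 0.056 with S1P (adjusted p = 0.618). The library labelled KO untreated 81 had the highest Cers6 of the 12 KO libraries, and without it these were -0.014 and -0.032.

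Cers5, the other synthase for palmitoyl chains, had an FPKM of 21.9, 22.8, 23.8 and 22.6 in the KO ACM libraries and 21.9, 21.6, 22.3 and 22.7 in the KO S1P libraries, against 22.3, 22.1, 19.9 and 22.6 in the KO untreated libraries. The WT ACM libraries had 19.4, 20.8, 21.2 and 18.1 and the WT S1P libraries 19.5, 20.05, 20.2 and 19.6, against 21.8, 20.8, 22.1 and 21.7 in the WT untreated libraries. In WT cells every S1P library lay below every untreated one, and 3 of 4 KO untreated libraries were above 22. Cers5 ran the other way from Cers2 and Cers6. It fell by 8.08% with S1P in WT cells (-0.12 ± 0.043, adjusted p = 0.0278) and differed by -0.12 ± 0.043 (adjusted p = 0.0565) with ACM. With S1P the call did not hold when low genes were kept (-0.12, adjusted p = 0.0508), after scaling to a common sum (-0.16, adjusted p = 0.0524) or with median scaling (-0.081, adjusted p = 0.123), nor on leaving out WT S1P 25 or 28 or WT untreated 1, 3 or 4 (-0.11 to -0.10). The ACM difference passed the test after scaling to a common sum (-0.23) and without WT ACM 20 or 21, WT untreated 2 or the library labelled KO untreated 81 (-0.15 to -0.12). In KO cells Cers5 differed by 0.067 ± 0.043 with ACM (adjusted p = 0.694) and 0.027 ± 0.043 with S1P (adjusted p = 0.876), and without KO untreated 81 by 0.027 and -0.013.

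Ugcg, which draws ceramide into glycosphingolipids, had an FPKM of 10.4, 10.02, 10.95 and 9.77 in the KO ACM libraries and 10.9, 10.5, 11.1 and 10.02 in the KO S1P libraries, against 10.8, 10.7, 9.46 and 11.2 in the KO untreated libraries. The WT ACM libraries had 8.88, 9.50, 9.44 and 8.35 and the WT S1P libraries 9.25, 9.43, 9.002 and 9.31, against 10.5, 9.55, 10.2 and 11.1 in the WT untreated libraries. In WT cells all treated libraries lay below all untreated ones, by a narrow gap, and the KO groups overlapped. Ugcg fell in WT cells with ACM (-0.17 ± 0.050, adjusted p = 0.0156) and with S1P (-0.14 ± 0.050, adjusted p = 0.0196), differences of -12.5% and -10.5% between the means. The ACM difference was -0.28 after scaling to a common sum, and its call was lost without WT ACM 22 or WT untreated 4 (both -0.14). With median scaling the S1P call was lost (-0.11) and likewise without WT S1P 27 or WT untreated 4 (-0.13 and -0.11). In KO cells Ugcg differed by -0.030 ± 0.050 with ACM (adjusted p = 0.902) and by 0.011 ± 0.050 with S1P (adjusted p = 0.960), and without KO untreated 81 by -0.076 and -0.035.

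Acid ceramidase, Asah1, had an FPKM of 116, 112, 117 and 118 in the KO ACM libraries and 111, 112, 117 and 116 in the KO S1P libraries, against 112, 113, 112 and 108 in the KO untreated libraries. The WT ACM libraries had 104, 106, 109.7 and 106 and the WT S1P libraries 107, 102, 99.7 and 99.1, against 107, 107, 112 and 111 in the WT untreated libraries. Only WT untreated 1 and 2 lay within the range of the WT S1P libraries, and the WT ACM libraries overlapped the WT untreated ones. Asah1 fell with S1P in WT cells (-0.096 ± 0.029, adjusted p = 0.00807), a difference of -6.48% between the means, while with ACM the difference was -0.036 ± 0.029 (adjusted p = 0.414). After scaling to a common sum the ACM difference was -0.15 and passed (adjusted p = 0.0374). With median scaling the S1P call was lost (-0.061) and in a fit of only the 2 groups (adjusted p = 0.057). In KO cells the differences were 0.058 ± 0.029 with ACM (adjusted p = 0.561) and 0.035 ± 0.029 with S1P (adjusted p = 0.729).

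The differences at both subunits of serine palmitoyltransferase were small. Sptlc1 had an FPKM of 16.6, 17.5, 17.1 and 17.6 in the KO ACM libraries and 17.1, 16.8, 16.97 and 17.6 in the KO S1P libraries, against 16.4, 17.5, 16.2 and 15.6 in the KO untreated libraries. The WT ACM libraries had 15.5, 16.2, 15.6 and 15.3 and the WT S1P libraries 16.1, 15.4, 16.5 and 16.1, against 16.9, 15.7, 18.3 and 17.1 in the WT untreated libraries. Of the WT ACM libraries 3 lay below every WT untreated library and 1 within their range. Sptlc1 fell with ACM in WT cells (-0.11 ± 0.038, adjusted p = 0.0411), a difference of -7.94% between the means. That call was lost with no filter, with median scaling, in a fit of only the 2 groups and without WT ACM 19, 21 or 22 or WT untreated 1, 3 or 4 (-0.11 to -0.077), while the difference was -0.22 after scaling to a common sum. With S1P Sptlc1 differed by -0.077 ± 0.038 (adjusted p = 0.0976) in WT cells, and passed without WT untreated 2 (-0.11). Sptlc2 differed by -0.0071 ± 0.030 (adjusted p = 0.900) with ACM and by -0.028 ± 0.030 (adjusted p = 0.473) with S1P in WT cells. In KO cells the Sptlc2 differences were 0.038 ± 0.030 (adjusted p = 0.761) with ACM and 0.084 ± 0.030 (adjusted p = 0.345) with S1P, and without KO untreated 81 they were 0.011 and 0.057. Those of Sptlc1 were 0.064 ± 0.038 (adjusted p = 0.648) and 0.056 ± 0.038 (adjusted p = 0.650).

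Degs1 and Smpd1 did not pass the test under either exposure in either genotype. Degs1 averaged 103 ± 1.10 FPKM in KO ACM, 101.3 ± 0.460 in KO S1P and 98.7 ± 2.77 in KO untreated cells, and 98.5 ± 2.14 in WT ACM, 98.5 ± 1.69 in WT S1P and 103 ± 3.34 in WT untreated cells (SD, n = 4 each). All treated KO libraries lay above all KO untreated ones for Degs1, with differences of 0.061 ± 0.026 (adjusted p = 0.505) and 0.038 ± 0.026 (adjusted p = 0.659). In WT cells Degs1 differed by -0.056 ± 0.026 (adjusted p = 0.134) with ACM and by -0.056 ± 0.026 (adjusted p = 0.0811) with S1P. Both WT differences passed when WT untreated 2 was left out (-0.080 and -0.079), and the ACM one also after scaling to a common sum (-0.17). Smpd1 averaged 12.9 ± 0.624 FPKM in KO ACM, 13.1 ± 0.739 in KO S1P and 13.1 ± 0.719 in KO untreated cells, and 12.2 ± 0.930 in WT ACM, 12.6 ± 0.339 in WT S1P and 12.9 ± 0.970 in WT untreated cells (SD, n = 4 each). Its 4 treatment differences were -0.017 and 0.0028 in KO cells with ACM and S1P, and -0.071 and -0.026 in WT cells. After scaling to a common sum the WT ACM difference was -0.18 and passed (adjusted p = 0.0326), and without KO untreated 81 the KO differences were -0.036 and -0.016.

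Counted over the 9, ACM in WT cells called 4 members, 2 higher and 2 lower, where 22.1% of all genes were called (12.2% higher and 9.85% lower). S1P in WT cells called 5 members, 2 higher and 3 lower, where 52.4% of all genes were called (25.2% higher and 27.2% lower). The median member difference was -0.056 with ACM and -0.056 with S1P in WT cells, against medians of -0.0013 and 0.0038 over all genes. In KO cells it was 0.058 with ACM and 0.027 with S1P, against 0.0054 and 0.0024 over all genes. The libraries did not overlap for 3 members with ACM and 3 with S1P in WT cells, where 28.8% and 45.2% of all genes did not. In KO cells limma called 0 of 9 with ACM and 0 of 9 with S1P, and 1 member in each passed at an unadjusted p under 0.05 (Degs1 with ACM and Sptlc2 with S1P). At that unadjusted cut 6 members passed with ACM and 6 with S1P in WT cells. In both KO comparisons 0.00879% of all genes were called, that is 1 of 11377, and 1 member (Degs1) did not overlap, as did 5.08% of all genes with ACM and 5.66% with S1P. When the library labelled KO untreated 81 was left out, limma called 0 of 9 members in either KO comparison, with 2 at an unadjusted p under 0.05 with ACM and 0 with S1P. The libraries then did not overlap for 2 members with ACM and 1 with S1P, and for 10.2% and 11.5% of all genes. The calls over all genes were then 0.0439% with ACM (0.0176% higher and 0.0264% lower) and 0.185% with S1P (0.0264% higher and 0.158% lower).

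**Figure D2:**
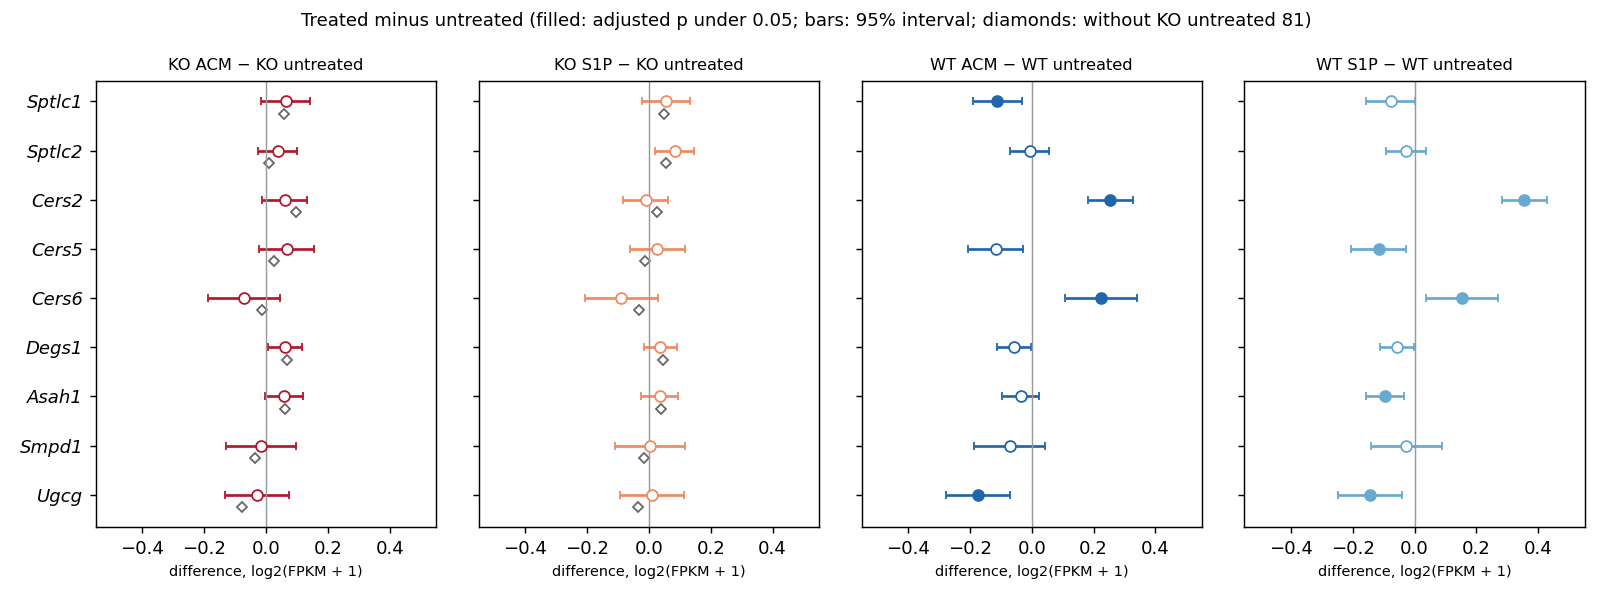
Difference between treated and untreated cells on the log2(FPKM + 1) scale (x axis) for each of the 9 genes in KO and WT cells; points are limma estimates and bars their 95% intervals. The Cers2 estimates in WT cells, 0.25 with ACM and 0.36 with S1P, stand to the right of the KO estimates, 0.061 and -0.0096.

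Whether a response differed between the genotypes was tested by the interaction, the KO response minus the WT response. For ACM 5 of 9 members passed, 3 with a positive and 2 with a negative interaction, where 17.1% of all genes did (7.41% positive and 9.64% negative). For S1P 5 of 9 passed, again 3 positive and 2 negative, where 41.9% of all genes did (22.5% positive and 19.4% negative). The rise of Cers2 in WT cells was smaller in KO cells, with interactions of -0.19 ± 0.049 for ACM (adjusted p = 0.00948) and -0.36 ± 0.049 for S1P (adjusted p = 4.64e-06). Those of Cers6 were -0.30 ± 0.080 for ACM (adjusted p = 0.0136) and -0.24 ± 0.080 for S1P (adjusted p = 0.0178), a WT difference above 0 set against a KO difference below 0. The S1P interactions of Cers2 and Cers6 kept their calls in all 21 alternatives, but after scaling to a common sum the ACM interactions were -0.079 for Cers2 (adjusted p = 0.475) and -0.19 for Cers6 (adjusted p = 0.138). With the library labelled KO untreated 81 left out, the Cers2 interactions were -0.16 and -0.33 and those of Cers6 -0.24 and -0.19, all 4 still called. WT untreated libraries enter both interactions and KO untreated libraries likewise, so the 2 are not independent.

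The other calls among the interactions were positive and less firm. With ACM they were Sptlc1 (0.18 ± 0.054, adjusted p = 0.0287), Cers5 (0.18 ± 0.061, adjusted p = 0.0417) and Degs1 (0.12 ± 0.037, adjusted p = 0.0341). With S1P they were Asah1 (0.13 ± 0.041, adjusted p = 0.0136), Sptlc2 (0.11 ± 0.043, adjusted p = 0.0424) and Degs1 (0.093 ± 0.037, adjusted p = 0.0484). For Sptlc1 the call was lost without KO ACM 86 or 88, KO untreated 82, WT ACM 19 or 22 or WT untreated 3 (0.14 to 0.17) and with no filter (adjusted p = 0.0507), and for Cers5 without any 1 of 9 libraries (0.14 to 0.19), KO untreated 81 among them (0.14, adjusted p = 0.0887). The other 8 were KO ACM 86, 87 and 88, WT ACM 19 and 22, and WT untreated 1, 3 and 4. The Cers5 call was also lost with no filter, with median scaling and in a fit of only the groups compared (adjusted p = 0.0804, 0.0676 and 0.0747). The Degs1 calls were lost in 11 of 21 alternatives with ACM and 16 of 21 with S1P. With ACM that included leaving out KO ACM 85, 87 or 88, KO untreated 80, WT ACM 19 or 21, or WT untreated 1, 3 or 4 (0.097 to 0.12). With S1P it included leaving out any KO S1P library, KO untreated 79 or 80, WT S1P 25, 26 or 27, or WT untreated 1, 3 or 4 (0.073 to 0.099). The Sptlc2 call was lost without KO S1P 91 or 92, KO untreated 79 or 81, WT S1P 25, 26 or 28, or WT untreated 1 or 2 (0.084 to 0.11; 0.084 without KO untreated 81), and with 4 other settings. The Asah1 call was lost only with the 2 other scalings (0.13 after scaling to a common sum, adjusted p = 0.202, and 0.094 after median scaling). Some S1P interactions gained a call: Sptlc1 without KO untreated 80, WT S1P 27 or WT untreated 2 (0.15 to 0.17), and Cers5 and Ugcg without KO untreated 82 or WT untreated 2 (0.16 and 0.16 for Cers5, 0.18 and 0.19 for Ugcg). Cers5 also passed in a fit of only the groups compared (0.14).

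The second question was how KO cells differed from WT cells within a condition. In untreated cells none of the 9 passed, where 2.47% of all genes did. Under ACM and under S1P the KO cells had less Cers2 and Cers6 and more Cers5, Ugcg, Asah1 and Sptlc2 than WT cells. Of all genes 28% passed under ACM and 52.4% under S1P, so the contrast with untreated cells is not particular to the members. The treated WT libraries here are those of the treatment comparisons above, so these differences and the WT responses rest on shared values. The library numbers run in blocks by genotype and condition, so genotype cannot be told apart from whatever that numbering follows. Granulocyte and progenitor markers moved with genotype too, among them S100a8, at 6.84 ± 0.831 FPKM in KO ACM against 1.91 ± 0.145 in WT ACM cells and 6.48 ± 0.685 in KO S1P against 2.56 ± 0.294 in WT S1P cells (SD, n = 4 each). The summed macrophage markers were lower in every KO ACM than in every WT ACM library and overlapped between KO S1P and WT S1P libraries, and the summed hepatocyte markers were lower in every KO S1P than in every WT S1P library. The part of these markers in the genotype differences was not tested.

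Under ACM limma called 7 of 9 members, 5 higher and 2 lower in KO cells, where 28% of all genes were called (12.5% higher and 15.5% lower), and 8 members did not overlap, as did 32.4% of all genes. The median member difference was 0.085, against 0.0059 over all genes. Cers6 averaged 9.27 ± 0.370 FPKM in KO ACM and 11.5 ± 0.279 in WT ACM cells, a difference of -0.28 ± 0.056 (adjusted p = 0.000683). Cers2 averaged 85.8 ± 3.08 FPKM in KO ACM and 97.6 ± 2.49 in WT ACM cells (-0.18 ± 0.035, adjusted p = 0.000371), which became -0.12 after scaling to a common sum (adjusted p = 0.0807). Every KO ACM library was below every WT ACM library for both synthases. Cers5 went the other way, at 22.8 ± 0.758 FPKM in KO ACM and 19.9 ± 1.43 in WT ACM cells (0.19 ± 0.043, adjusted p = 0.00212). Sptlc1 was 9.92% higher in KO ACM cells (0.13 ± 0.038, adjusted p = 0.0143) and Asah1 9.01% higher (0.12 ± 0.029, adjusted p = 0.00276). These 2 calls and those of Cers5 and Cers6 held in all 14 alternatives. Ugcg was 13.7% higher (0.17 ± 0.050, adjusted p = 0.0142), a call lost without KO ACM 87 or WT ACM 22 (0.14 and 0.13). Sptlc2 was 6.39% higher (0.085 ± 0.030, adjusted p = 0.0411), and this call was lost with no filter, with median scaling, and without KO ACM 85, 86 or 87 or WT ACM 19, 20 or 22 (0.074 to 0.087). Degs1 and Smpd1 did not pass (0.064 ± 0.026, adjusted p = 0.0768 and 0.074 ± 0.055, adjusted p = 0.339).

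Under S1P limma called 6 of 9 members, 4 higher and 2 lower in KO cells, where 52.4% of all genes were called (26.9% higher and 25.4% lower), and 8 members did not overlap, as did 46.6% of all genes. The median member difference was 0.086, against 0.00031 over all genes. Cers2 averaged 81.6 ± 0.783 FPKM in KO S1P and 105 ± 2.40 in WT S1P cells, a difference of -22.1% between the means (-0.36 ± 0.035, adjusted p = 2.4e-08). Cers6 averaged 9.14 ± 0.389 FPKM in KO S1P and 10.9 ± 0.735 in WT S1P cells (-0.23 ± 0.056, adjusted p = 0.00173). Both calls held in all 14 alternatives. The 4 genes that were higher in KO S1P cells were Ugcg by 14.7% (0.18 ± 0.050, adjusted p = 0.00439), Asah1 by 11.8% (0.16 ± 0.029, adjusted p = 7.58e-05), Sptlc2 by 11.6% (0.15 ± 0.030, adjusted p = 0.000239) and Cers5 by 11.4% (0.15 ± 0.043, adjusted p = 0.00595). For Sptlc2 the libraries had 21.99, 21.2, 20.98 and 20.7 FPKM in KO S1P cells, against 18.6, 18.7, 19.8 and 18.95 in WT S1P cells, with no overlap. All 4 of these calls were lost after scaling to a common sum, where the differences were 0.097 for Sptlc2, 0.094 for Cers5, 0.10 for Asah1 and 0.13 for Ugcg. Sptlc1, Degs1 and Smpd1 did not pass (0.086 ± 0.038, adjusted p = 0.0641, 0.040 ± 0.026, adjusted p = 0.211 and 0.049 ± 0.055, adjusted p = 0.476).

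In untreated cells limma called 0 of 9 members and 2.47% of all genes between KO and WT (1.26% higher and 1.21% lower), 0 members and 9.09% of all genes did not overlap, and 0 members passed at an unadjusted p under 0.05. The largest difference was that of Degs1, at -0.053 ± 0.026 (adjusted p = 0.321, 95% interval -0.11 to 0.0013), and that of Cers2 was 0.0086 ± 0.035 (adjusted p = 0.932, -0.064 to 0.081). With the library labelled KO untreated 81 left out, limma called 0 members and 8.16% of all genes (4.13% higher and 4.03% lower), and 0 members and 22.5% of all genes did not overlap. At an unadjusted p under 0.05 there were then 2 members, Sptlc2 (0.067, adjusted p = 0.178) and Degs1 (-0.061, adjusted p = 0.203). The difference farthest from 0 was that of Ugcg (0.071, against 0.025 with the library), and that of Cers2 was -0.027. That library stood outside the other 3 for most of the genes that moved in treated WT cells, and also for Sptlc2 and Smpd1, which were not called there. It had 18.8 FPKM of Sptlc2 where the other 3 had 20.1 to 20.8, and 12.55 of Smpd1 where they had 12.57 to 14.1. It had 88.6 FPKM of Cers2 where the other 3 had 79.1 to 81.4, 11.1 of Cers6 where they had 8.85 to 9.73, 19.9 of Cers5 where they had 22.1 to 22.6, and 9.46 of Ugcg where they had 10.7 to 11.2. Its Cers5, Cers6 and Ugcg values lay within the WT ACM ranges, and its Cers2 value lay between the WT untreated and WT ACM ranges. None of these gaps was among those flagged further below, where a gap that chance gives in about 1 in 20 groups was looked for.

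**Figure D3:**
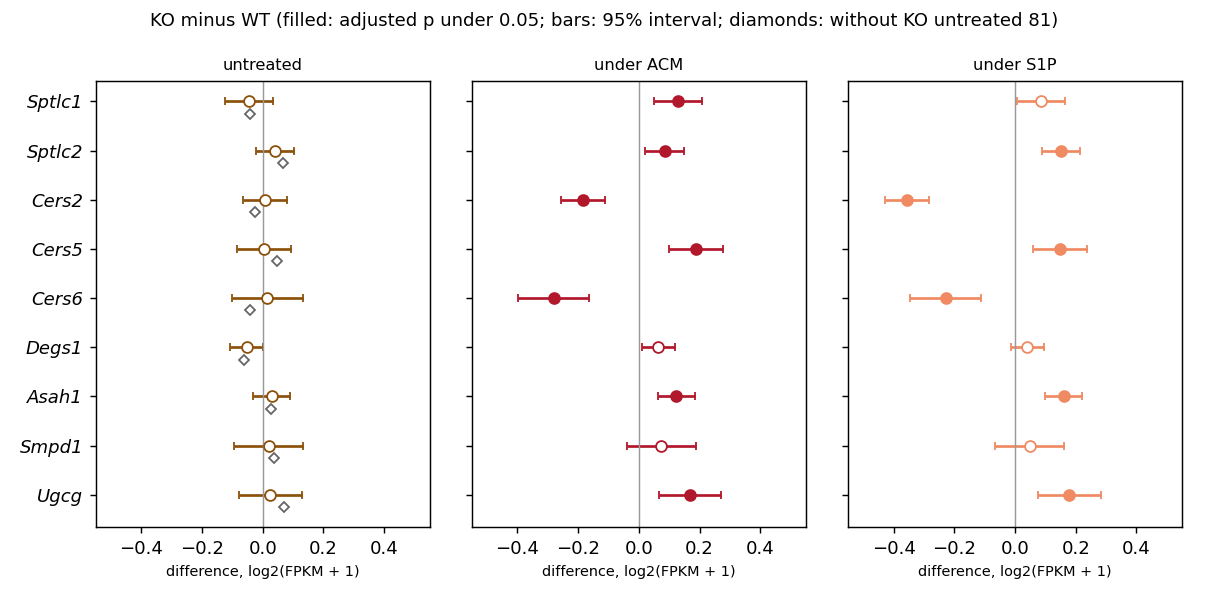
Difference between KO and WT cells on the log2(FPKM + 1) scale (x axis) for each of the 9 genes under ACM, under S1P and untreated; points are limma estimates and bars their 95% intervals. Cers2 and Cers6 lie below 0 under both exposures, at -0.18 and -0.28 with ACM and -0.36 and -0.23 with S1P, and near 0 in untreated cells.

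Set against each other, the 2 exposures differed at 1 member in WT cells. Cers2 was lower with ACM than with S1P (-0.10 ± 0.035, adjusted p = 0.0235), a difference of -6.84% between the means with no overlap between the libraries, where 41.5% of all genes were called (23% higher and 18.5% lower) and 37.2% did not overlap. The call was lost without WT ACM 19 or 21 or WT S1P 27 or 28 (-0.093 to -0.089), and the difference was -0.18 after scaling to a common sum. Asah1 passed without WT S1P 25 (0.084). In KO cells 0 of 9 members passed between ACM and S1P, also at an unadjusted p under 0.05, where 0.0352% of all genes were called. The libraries of 0 members and of 6.32% of all genes did not overlap. The largest KO difference was 0.071 for Cers2 (95% interval -0.0017 to 0.14).

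In order of group means, Cers2 was highest in WT S1P cells, then WT ACM, then KO ACM, each step larger than the SD of either group, while KO ACM, KO untreated, WT untreated and KO S1P cells did not differ from their neighbours beyond their spread. For Cers6 the only step beyond the spread lay between WT S1P and KO untreated cells, for Cers5 between WT untreated and WT ACM cells, and for Ugcg between KO ACM and WT S1P cells. For Asah1 both steps down among the WT groups, untreated to ACM to S1P, were beyond the spread, and for Sptlc2 the step between KO S1P and KO ACM cells. For Sptlc1, Degs1 and Smpd1 no neighbours in the order of groups differed beyond their spread.

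Because Cers2 and Cers6 moved one way and Cers5 the other, the make-up of the 3 synthase transcripts was computed per library as shares of their summed FPKM. Cers2 made up 72.8 ± 0.853% in KO ACM, 72.3 ± 0.506% in KO S1P and 72.3 ± 1.23% in KO untreated cells, and 75.7 ± 1.01% in WT ACM, 77.3 ± 0.575% in WT S1P and 72.3 ± 1.24% in WT untreated cells (SD, n = 4 each). Cers5 made up 19.3 ± 0.889% in KO ACM, 19.6 ± 0.436% in KO S1P and 19.1 ± 1.67% in KO untreated cells, and 15.4 ± 1.11% in WT ACM, 14.7 ± 0.321% in WT S1P and 19.1 ± 0.701% in WT untreated cells. The Cers6 share lay between 7.86 and 8.89% in all 6 group means. In treated WT cells every library had a smaller Cers5 share than every WT untreated library and every library of treated KO cells. The library labelled KO untreated 81 had 74.1% Cers2 and 16.6% Cers5, while the other 3 averaged 71.7 ± 0.330% and 19.95 ± 0.0774% (SD, n = 3). These shares follow from the values tested above and are a description with no test of their own.

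**Figure D4:**
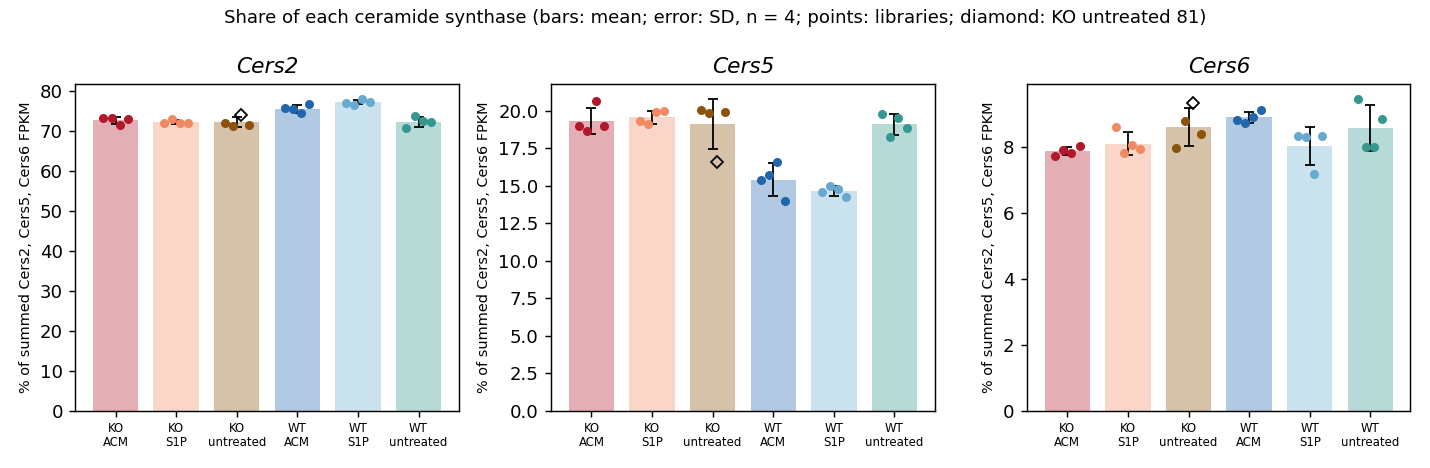
Share of Cers2, Cers5 and Cers6 in their summed FPKM (y axis, percent) by group; points are libraries and bars the mean and SD. The Cers5 share is 15.4% with ACM and 14.7% with S1P in WT cells and 19.1 to 19.6% in the other 4 groups.

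Over the 24 libraries the members fell into opposed patterns, given here as correlations of log2(FPKM + 1) with no test, since libraries of a group share their treatment and genotype. Cers5 and Ugcg varied together (r = 0.84), as did Cers2 and Cers6 (r = 0.73), while Cers2 ran against Ugcg (r = -0.82) and Cers5 (r = -0.75). The genes outside the set most like Cers2 were Entpd5, Scarb2 and Cpt1a (r = 0.96 each), and those most like Cers6 were Golga3, Flrt2 and Parp10 (r = 0.93, 0.93 and 0.92). Asah1 was most like Sypl, Clec5a and Dpp7 (r = 0.92, 0.90 and 0.90), Ugcg most like Angel2, Mut and Serpinb2 (r = 0.89, 0.86 and 0.85), and Cers5 most like Hebp1, Havcr2 and Emp1 (r = 0.87, 0.87 and 0.86). Sptlc2 was most like Runx3, H2-Ab1 and Cd244a (r = 0.88, 0.87 and 0.87). The closest genes were weaker matches for Degs1 (Msh3, Lrp8 and Bzw1, r = 0.77, 0.76 and 0.75), Sptlc1 (Ipo7, Colec12 and Idh1, r = 0.75, 0.73 and 0.72) and Smpd1 (Gnpda2, Polr3f and Ptrhd1, r = 0.70, 0.64 and 0.64).

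The other genes of sphingolipid metabolism are 63 in 8 lists that also hold the 9 members, and 44 of the 63 were above the filter. Of these 44, 12 rose and 3 fell with ACM in WT cells, where 12.2% of all genes rose and 9.85% fell, and 19 rose and 13 fell with S1P, where 25.2% and 27.2% did. The median difference of the 44 was 0.080 with ACM and 0.024 with S1P. In KO cells limma called 0 of 44 with ACM and 0 with S1P, beside 0.00879% of all genes in each. At an unadjusted p under 0.05, 6 and 3 of the 44 passed. Between KO and WT cells 9 were higher and 10 lower under ACM (12.5% and 15.5% of all genes) and 13 higher and 12 lower under S1P (26.9% and 25.4%). In untreated cells 3 were higher (Sgpl1, Smpdl3a and Neu1) and 0 lower, against 1.26% and 1.21% of all genes. Without KO untreated 81 it was 4 higher, with Glb1 added, and 2 lower, St3gal5 and B4galt6, against 4.13% and 4.03%, and the WT ACM counts were 16 and 5, against 13.8% and 11% of all genes.

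Around serine palmitoyltransferase, none of the 7 genes tested rose with ACM in WT cells and 3 fell, and 1 rose and 4 fell with S1P, against the shares of all genes just given (9.85% lower with ACM, 25.2% higher and 27.2% lower with S1P). Sptssa, its small activating subunit, averaged 116 ± 2.69 FPKM with ACM and 91.3 ± 11.1 with S1P in WT cells, against 139.7 ± 3.48 in WT untreated cells (-0.27 ± 0.054, adjusted p = 0.00112 with ACM and -0.62 ± 0.054, adjusted p = 5.9e-09 with S1P). Kdsr, the reductase of the next step, fell by 0.21 ± 0.049 with ACM (adjusted p = 0.00485). Between the genotypes 5 of these 7 genes were higher in KO cells and 0 lower under ACM, and likewise 5 and 0 under S1P, where 12.5% and 26.9% of all genes were higher. Sptssa, Kdsr, Ormdl1 and Sptlc2 were among the 5 in both, with Sptlc1 added under ACM and Ormdl2 under S1P. Sptlc1 and Sptlc2 are members already given above. The list holds regulators as well as subunits, so the counts are no measure of the amount of the enzyme.

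Among the genes of lysosomal glycosphingolipid breakdown, 5 of 12 rose and 0 fell with ACM in WT cells, and 5 rose and 3 fell with S1P, where 22.1% and 52.4% of all genes were called in either direction. Psap, the precursor of the saposins that present lipids to lysosomal hydrolases including acid ceramidase, averaged 2616 ± 42.99 FPKM with ACM and 3224 ± 154 with S1P in WT cells, against 2123 ± 76.5 in WT untreated cells (SD, n = 4 each), while in KO cells it averaged 2235 ± 79.8 with ACM, 2226 ± 35.9 with S1P and 2309 ± 107 untreated. In WT cells it rose by 0.30 ± 0.039 (adjusted p = 1.44e-05) with ACM and by 0.60 ± 0.039 (adjusted p = 5.84e-11) with S1P. Gla, alpha-galactosidase A, rose by 0.22 ± 0.045 and 0.38 ± 0.045 in the same comparisons (adjusted p = 0.00150 and 3.34e-07).

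On the sphingomyelin side, 2 of 9 genes rose and 0 fell with ACM in WT cells, and 4 rose and 2 fell with S1P. Called in either direction, that is 2 of 9 beside 22.1% of all genes and 6 of 9 beside 52.4%, so the ACM count is at the level of all genes. Smpdl3a, a relative of acid sphingomyelinase, rose with ACM (0.30 ± 0.063, adjusted p = 0.00159) and with S1P (0.92 ± 0.063, adjusted p = 1.36e-10), to 66.1 ± 2.01 and 103 ± 10.3 FPKM against 53.4 ± 1.60 in WT untreated cells. Its level in KO untreated cells, 69.7 ± 7.25 FPKM, was above that of WT untreated cells (0.37 ± 0.063, adjusted p = 0.00249). Smpd1 itself, as given above, did not pass in any comparison. Of the 6 genes tested that make and remove S1P, 3 rose and 2 fell with S1P in WT cells, where 25.2% and 27.2% of all genes did. Sphk2, a sphingosine kinase, rose (0.65 ± 0.071, adjusted p = 9.77e-08), as did Sgpl1 and Plpp3. Plpp3 had the largest rise (1.27 ± 0.15, adjusted p = 2.71e-07), from 0.41 FPKM in WT untreated cells to 2.48 ± 0.82 with S1P. Its mean was also under 1 FPKM in WT cells given ACM (0.84) and KO cells given S1P (0.35). The filter asks for 1 FPKM in 4 libraries, so Plpp3 may have been tested only because of this rise. Its p-value and its place among the 3 that rose are to be read with that limit. Sgpp1, an S1P phosphatase, fell (-0.43 ± 0.046, adjusted p = 9.65e-08), as did Plpp2.

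**Figure D5:**
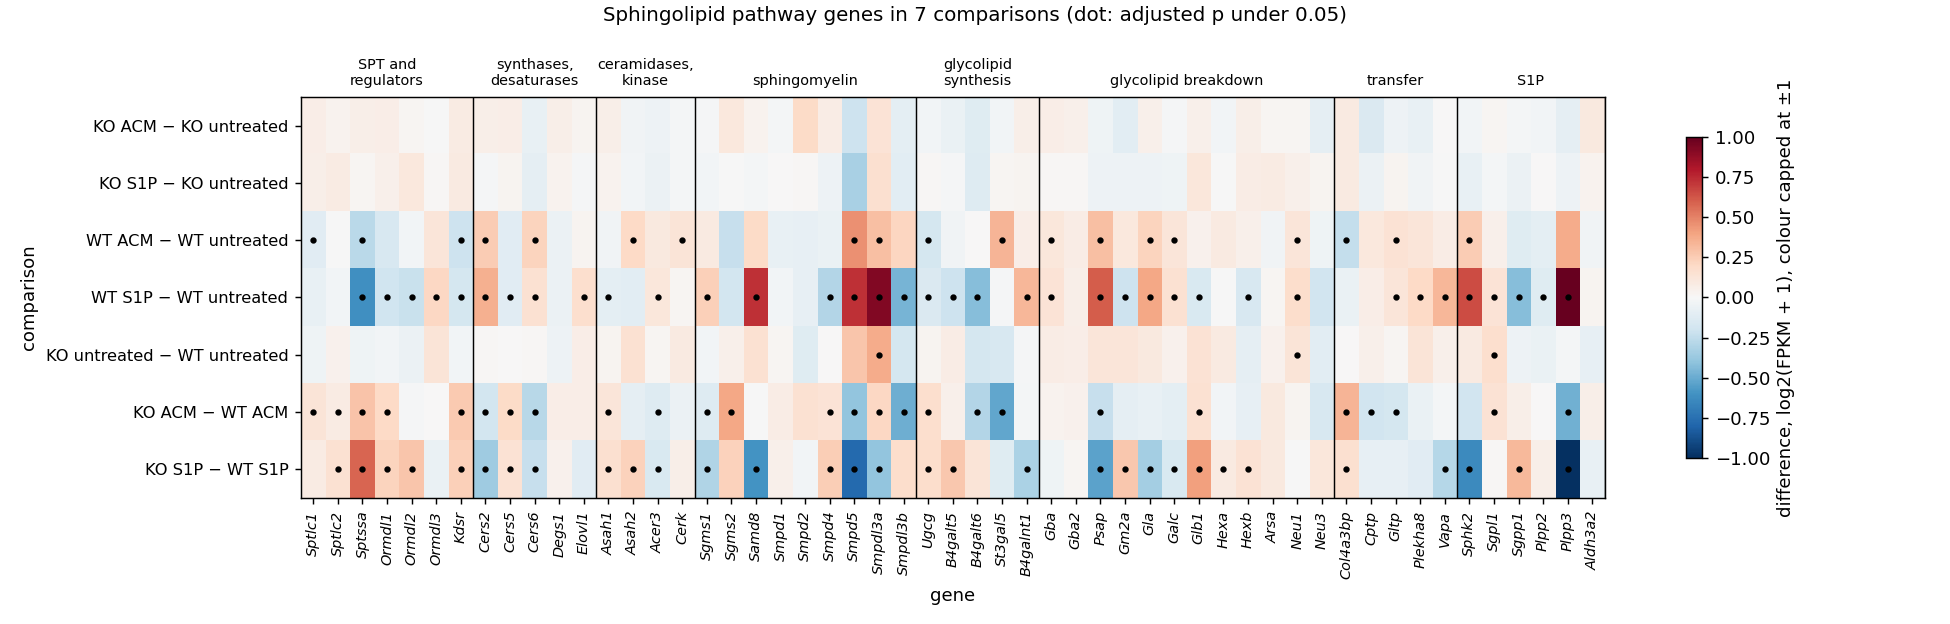
Difference on the log2(FPKM + 1) scale (colour, capped at 1 in either direction) for the 53 sphingolipid genes tested, grouped by list along the x axis, in 7 comparisons along the y axis; a dot marks an adjusted p under 0.05. The rows of the KO treatment comparisons hold 0 dots, and in the WT rows Sptssa is lower (-0.27 with ACM and -0.62 with S1P) while Psap is higher (0.30 and 0.60).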

How the data were processed

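RNA extracted with Trizol was enriched for messenger RNA with oligo(dT) beads and sequenced, per the labels' protocols. The authors deposited FPKM values of 54532 genes for the 24 libraries in 1 table. Its making involved mm10, GRCm38, DESeq, edgeR, featureCounts, HISAT2, STAR, STAR-Fusion and StringTie, per the submitters' processing notes, with roles, versions and strand not given in the sources used here. Reads of overlapping genes on opposite strands can therefore not be told apart. Of the gene identifiers, 54495 matched GENCODE M21, all 9 members among them.

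Converted back through exon length, the FPKM gave whole read numbers for 96.4 to 96.7% of values per library (tolerance 0.05) and for all 9 members. The step of 1 read gave the library size used in the scaling. Groups came from the labels. The filter kept 11377 genes that reached an FPKM of 1 in 4 or more libraries. They were tested on log2(FPKM + 1), a scale that understates changes of low genes, by limma 3.58.1 (R 4.3.3), modelling the 6 group means together with eBayes trend, in 11 comparisons. P-values were adjusted over all genes by Benjamini-Hochberg, and those under 0.05 were called. Simulated data with known changes served to check the test.

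The alternatives were a pseudocount of 0.1, no filter, scaling to a common sum (TPM), scaling to a common median, a fit of only the groups compared, and leaving out each library in turn. The text names all 9 members, Trem2, up to 10 other pathway genes with the smallest adjusted p in a comparison (a selection of these is given), and the 3 genes whose values correlate most with each member, leaving out predicted and mitochondrial genes. Setdb1 and 6330562C20Rik are named as genes that overlap Cers2, and S100a8 and Serpina1a as listed markers. Ormdl1, Ormdl2, Plpp2, Glb1, St3gal5 and B4galt6 were named after their values were seen, and genes below the filter as members of their lists. The members and lists were chosen with earlier results of these data known.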

Additional observations from a re-analysis of the deposited data

Results flagged for a closer look

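For 7 genes an interaction between exposure and genotype passed the test, in 10 results, 5 with ACM and 5 with S1P. Of all genes 17.1% passed with ACM and 41.9% with S1P. Only the S1P interactions of Cers2 and Cers6 kept their calls in all 21 alternatives, and each of the others was lost in at least 1. With ACM the KO response minus the WT response was -0.19 for Cers2, -0.30 for Cers6, 0.18 for Sptlc1, 0.18 for Cers5 and 0.12 for Degs1. With S1P it was -0.36 for Cers2, -0.24 for Cers6, 0.13 for Asah1, 0.11 for Sptlc2 and 0.09 for Degs1. All are on the log2(FPKM + 1) scale.

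In 3 cases 1 library stood apart from the other 3 of its group by a gap that chance gives in about 1 in 20 groups. These were the Trem2 FPKM of 79.6 in the library labelled KO untreated 81, the Degs1 FPKM of 94.6 in KO untreated 80, and the Degs1 FPKM of 97.5 in WT untreated 2. The Degs1 values lay below the others of their groups, and the Trem2 value above. The gap was looked for in each of the 9 members and Trem2 in all 6 groups, 60 times in all, so chance gives about 3.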

How the results depend on the processing

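Of 99 member results (9 genes in 11 comparisons), 33 passed the test; 10 of these kept their call in every alternative and 23 lost it in at least 1. Over 1485 alternative values, 1287 kept direction and call, 115 lost a call, 20 gained one and 63 changed sign, 0 of them of a called result. Scaling to a common sum moved the median of all genes by -0.10 in WT ACM against WT untreated cells and by 0.10 in the ACM interaction. It called 7 members with ACM in WT cells (4 in the analysis as reported), 3 with S1P in WT cells (5), 2 between KO S1P and WT S1P cells (6), 3 in the ACM interaction (5) and 2 in the S1P interaction (5). With no filter 3 were called with S1P in WT cells and 3 in each interaction, with median scaling 2 with S1P in WT cells, 3 in the ACM interaction and 2 in the S1P interaction, and with only the groups compared 3 with S1P in WT cells and 3 in the ACM interaction. Leaving out 1 library gave 2 to 6 with ACM and 3 to 6 with S1P in WT cells, 5 to 7 and 6 to 6 between KO and WT under ACM and S1P, 0 to 2 between ACM and S1P in WT cells, and 2 to 5 and 3 to 7 in the ACM and S1P interactions. It gave 0 throughout in the KO treatment comparisons, between ACM and S1P in KO cells and between untreated KO and WT cells. The cause of these changes was not tested. Signs that changed after scaling to a common sum gave, for KO S1P minus KO untreated, Cers5 -0.014, Degs1 -0.0044, Asah1 -0.0073, Smpd1 -0.036 and Ugcg -0.027, and for KO untreated minus WT untreated, Sptlc2 -0.013, Cers2 -0.046, Cers5 -0.048, Cers6 -0.035, Asah1 -0.026, Smpd1 -0.032 and Ugcg -0.026. They also gave Degs1 -0.016 and Smpd1 -0.0030 for KO S1P minus WT S1P, Smpd1 0.017 for KO ACM minus KO S1P, and Sptlc2 -0.052 and Asah1 -0.015 for WT ACM minus WT S1P. Median scaling gave Sptlc2 0.0012 for ACM and 0.0072 for S1P in WT cells, Smpd1 0.0087 for S1P in WT cells, Sptlc2 -0.0060 for WT ACM minus WT S1P, and Smpd1 -0.0082 in the S1P interaction. Leaving out 1 library changed the sign, for KO untreated minus WT untreated, of Cers2 (-0.027 to 0.027), Cers5 (-0.014 to 0.045), Cers6 (-0.042 to 0.059), Smpd1 (-0.028 to 0.054) and Ugcg (-0.0089 to 0.071). It did so for KO S1P minus KO untreated at Cers2 (-0.028 to 0.026), Cers5 (-0.013 to 0.046), Smpd1 (-0.023 to 0.038) and Ugcg (-0.035 to 0.039), for KO ACM minus KO untreated at Smpd1 (-0.040 to 0.016), and for KO ACM minus KO S1P at Sptlc1 (-0.0018 to 0.024) and Smpd1 (-0.055 to 0.0053). In WT cells it did so at Sptlc2 with ACM (-0.016 to 0.0099), Smpd1 with S1P (-0.074 to 0.0072), and for ACM minus S1P at Cers5 (-0.031 to 0.042), Degs1 (-0.013 to 0.0097) and Ugcg (-0.053 to 0.0027), and in the S1P interaction at Smpd1 (-0.0044 to 0.077). No paired analysis was possible because no replicate number is shared between groups. Counting error was at most 3.90% of a value, so differences of a few percent at Smpd1, Ugcg and Sptlc1 are close to the counting error of a single library. The changes called are small and rest on 4 libraries a group.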

Other observations

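Several enzymes that share a step with the 9 genes were expressed too little to be tested. Of the 72 genes in the lists, 19 were below the filter. The ceramide synthase genes Cers1, Cers3 and Cers4 reached at most 0.65 FPKM in any library. Sptlc3 and Sptssb, alternative subunits of serine palmitoyltransferase, and Acer1, Ugt8a, Enpp7 and Abca12 were listed at 0 in every library.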
